A study of Arabidopsis thaliana with 2 samples.

Results

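The genes described here gave an array signal at least 1.5-fold higher in the array coded NOT than in the array coded WDC, leaving out 19 genes that share this direction, among them peroxidases, chitinases, phenolic and detoxifying enzymes, endoplasmic reticulum folding genes and WRKY53. A gene was taken when its brightest probe set exceeded a signal floor of 12.5 on NOT and reached 1.5 times the WDC signal, with WDC signals under the floor set to the floor. Of 3602 genes named by a probe set of their own, 2118 exceeded the floor on an array and 108 met the rule, a percentage of 5.1%. Without the 19, 89 genes remained. The genes were chosen by the signals of both arrays, so their direction and size are a description and no test was made.

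Both arrays carried RNA from rosette leaves of Arabidopsis thaliana Col-0, in a series on nitric oxide, a gas that plants use as a signal. Seeds of both groups were kept at 4 °C for 1 week, and plants then grew in compost under constant light (24 h) at 22 °C to growth stage 3.5, and leaves of several experiments were pooled into each sample. NOT and WDC are codes in the sample titles that the labels do not spell out, and neither is tied to the control that a label mentions, so the ratio is given as NOT over WDC throughout. Each group had 1 array. No difference could therefore be checked against replicates, and precision is limited by the number of arrays. The leaf identity of both samples was seen in RCA, the activase of Rubisco, with 2442 in WDC and 2469 in NOT. In all, 5 leaf markers of 27 listed had a named probe set, and their log2 ratios lay between -0.30 and 0.10. The root marker and the pollen marker with a named probe set were not above the floor on either array, and no listed seed marker had one. In pooled leaf RNA, fewer cells of a type and less RNA per cell cannot be told apart.

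Nitric oxide in plants acts together with reactive oxygen and salicylic acid in defence, in programmed cell death and in the control of leaf senescence. Leaves in defence expand the secretory pathway, where proteins receive sugar chains before they reach the vacuole or the cell wall. Senescing leaves break down proteins and amino acids and export the products. In the next paragraphs the genes are ordered by these roles. Genes outside the 89 were not sorted into classes by function. The number of genes in a class therefore has no share over all genes beside it, and nothing is read from it. For 70 of the 89 genes the tables give a locus number as the only name, and the family stated for such a locus is general knowledge of the Arabidopsis genome and does not come from the array files.

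Of the 89 genes, 74 were above the floor on both arrays. Their median log2 ratio was 0.75, a 1.68-fold difference, beside a median of -0.02 and quartiles of -0.27 and 0.20 over all 1937 named genes measured on both arrays. The other 15 were above the floor on NOT only, and for them a lower bound of the fold is given. At least 2-fold was reached by 15 genes and at least 3-fold by 3. Most of the 89 genes thus lay between the rule and 2-fold. Of all named genes above the floor on an array, 28 (1.32%) were at 2-fold or more, these 15 among them. The rule kept only ratios of 1.5-fold or more, so nothing is read from the difference. The median signal of the 89 genes was 31.3 in WDC and 61.1 in NOT, whereas all 2118 genes above the floor on an array had medians of 54.1 and 49.9. For scale, log2 ratios of several probe sets for 1 gene, each above the floor on both arrays, scattered around their mean with an SD of 0.20 (93 genes). The rule corresponds to a log2 ratio of 0.58. This scatter covers probes on these arrays and no variation between plants. It also leaves out disagreement with probe sets under the floor. An example is AT4G24340, with NOT signals of 95.6 on the used probe set and 5.6 on the other.

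**Figure D1:**
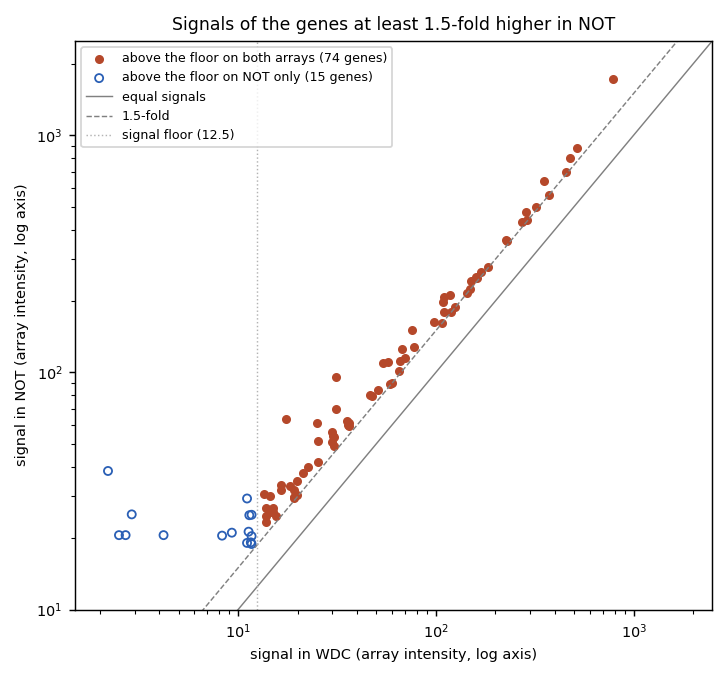
Signal in NOT (vertical, log axis) against signal in WDC (horizontal, log axis) for the 89 genes, filled where both arrays were above the floor of 12.5 (74 genes) and open where only NOT was (15 genes). Most points follow the dashed 1.5-fold line closely over the whole range of signals, and AT1G76960 stands at the bright end with 786.7 in WDC and 1718 in NOT.

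AT1G54010, also known as GLL23, had the highest ratio. It belongs to the GDSL-type lipase-like proteins that associate with the beta-glucosidases of the endoplasmic reticulum body, a compartment that holds defence enzymes. Its signal was 17.4 in WDC and 63.3 in NOT, 3.64-fold higher in NOT. JAL34, a jacalin-related lectin of a family that binds the same enzymes, gave 2.9 in WDC, under the floor, and 25.2 in NOT, at least 2.02-fold higher. Of 23 listed genes of GDSL-type lipases, jacalin lectins and the endoplasmic reticulum body, 4 had a named probe set, and AT1G54010 and JAL34 were the only ones above the floor. The value of AT1G54010 was known when the list was written and JAL34 passed the floor through NOT alone, so the count of the list is given with nothing read from it.

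Defence and sugar-binding proteins made up 7 of the 89 genes. AT4G07820, a secreted protein of the CAP family to which the defence marker PR1 belongs, gave 2.2 in WDC and 38.4 in NOT, at least 3.07-fold higher. The value rests on 1 of its 4 probe sets, since the other 3 gave between 0.2 and 1.2 on both arrays. Its relatives differed in direction. Of 22 listed CAP genes, 10 had a named probe set and 3 were above the floor on an array. AT4G07820 was higher, PR-1-LIKE was lower with 66.2 in WDC and 9.3 in NOT, and AT4G33710 gave 21.6 and 16.7. AT3G48080, a paralogue of the immune regulator EDS1, gave 50.7 in WDC and 84 in NOT, 1.66-fold higher in NOT. CML41, a calmodulin-like calcium sensor, gave 36.5 and 61.1, 1.67-fold higher, and its probe set is marked for shared sequence. These 2 genes of immune signalling were of moderate signal and had nearly the same fold.

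The remaining defence genes were receptors and lectins. AT4G36140, which encodes an immune receptor of the TIR type, gave 14.5 in WDC and 25.7 in NOT, 1.77-fold higher, while its other probe set gave 7.7 and 5.9, both under the floor. AT1G67520, a protein kinase with a lectin domain, gave 11.6 and 19.2, at least 1.54-fold higher. AT1G78830, a protein of the mannose-binding lectin family, was the brightest of the class. It gave 352.2 in WDC and 640.3 in NOT, 1.82-fold higher. None of the 17 listed genes of salicylic acid defence had a named probe set, so the best known markers of that pathway were not analysed here.

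The secretory pathway and protein glycosylation were represented by 8 genes, of which 7 were measured on both arrays, with log2 ratios from 0.59 to 0.95. GPT, the enzyme that starts the assembly of N-linked sugar chains on dolichol, gave 117.5 in WDC and 211 in NOT, 1.80-fold higher in NOT. One of its other probe sets gave 108.8 and 175.3, 1.61-fold higher, and the other stayed below 4 on both arrays. PMM, phosphomannomutase, supplies the mannose for these chains and for ascorbate synthesis, and gave 170 in WDC and 265.3 in NOT, 1.56-fold higher. AT1G12990, of an N-acetylglucosaminyltransferase family, gave 30 and 56.1, 1.87-fold higher. GPT and PMM act in or supply protein glycosylation, while AT1G12990 is placed with them by its family alone.

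The other genes of this class act in vesicle traffic and membrane contact. AT4G01810, a Sec23-type coat protein of vesicles leaving the endoplasmic reticulum, gave 46.6 in WDC and 80 in NOT, 1.72-fold higher. AT4G23460, a beta-adaptin of clathrin coats, gave 119.6 and 180.2, 1.51-fold higher. RAB6A, a small GTPase of the Golgi, gave 372.4 and 560.4, 1.505-fold higher, and its probe set is marked for shared sequence. AT4G23460 and RAB6A were among the 5 genes closest to the rule, and both fell short of it after loess normalization, at log2 ratios of 0.57 and 0.54. AT1G51270, of the VAP family at membrane contact sites, gave 13.8 and 26.7, and SPI, a BEACH-domain protein needed for cell shape, gave 11.3 and 21.3. Their WDC signals lay near or under the floor, and the folds were 1.93 and at least 1.70. A list of 21 genes of the secretory pathway and the endoplasmic reticulum had 5 measured genes, with a median log2 ratio of 0.37. The 2 that met the rule were ATERDJ2B (2.15-fold) and DER2.1 (1.70-fold), which are among the 19 genes left out. None of the genes described in this class is on the list. It was chosen with earlier results of these data known, so its count and median are given with nothing read from them. The coat proteins on the list, AT4G14160 and AT2G21630, are of the Sec23 type like AT4G01810. They gave log2 ratios of 0.37 and 0.35, short of the rule.

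Protein and amino acid breakdown, storage and senescence accounted for 8 genes. The adjacent loci AT4G24340 and AT4G24350 encode proteins of the phosphorylase superfamily that resemble the storage proteins of bark. AT4G24340 gave 31.2 in WDC and 95.6 in NOT, 3.06-fold higher, and AT4G24350 gave 322.2 and 499.7, 1.55-fold higher. Both used probe sets carry the suffix i, which Affymetrix gives to probe sets with fewer probes than intended. The second probe set of AT4G24350, without a suffix of this kind, gave 76.8 and 124.6, 1.62-fold higher, and that of AT4G24340 gave 4 and 5.6, under the floor on both arrays. The neighbour on the other side, AT4G24330, gave 176.3 and 219.3, a fold of 1.24.

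Enzymes of amino acid breakdown were of low signal. MCCA, the biotin-carrying subunit of methylcrotonyl-CoA carboxylase in leucine breakdown, gave 18.2 in WDC and 33.3 in NOT, 1.83-fold higher. Its partner subunit MCCB gave 18.6 and 16.9, a log2 ratio of -0.14, which is smaller than the probe scatter (SD 0.20). The higher signal was thus seen for MCCA alone, with both subunits close to the floor. AT4G33150, the bifunctional LKR/SDH enzyme of lysine breakdown, gave 15 and 25.9, 1.73-fold higher. The probe sets of MCCA and AT4G33150 carry the mark for shared sequence. Of 11 listed genes of sugar starvation, 3 were measured and MCCA was the only one that met the rule, beside 5.1% of all named genes. This list too was chosen with earlier results known, so nothing is read from its count.

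Proteases and autophagy genes followed with small differences. AT1G02300, a cathepsin B-like cysteine protease, gave 30.7 in WDC and 53.3 in NOT, 1.74-fold higher, and AARE, a peptidase that removes acylated amino acids, gave 19.1 and 29.6, 1.55-fold higher. Of 5 measured vacuolar proteases on a separate list 0 met the rule, near the 5.1% of all named genes, and their median log2 ratio was 0.22. ATG8D, a ubiquitin-like protein that coats autophagosomes, gave 143.2 and 216.2, 1.51-fold higher, and fell short of the rule after loess normalization. It was 1 of 6 ATG8 genes measured. The others ran from APG8A, with a log2 ratio of 0.46, down to ATG8B at -0.53, and the median of the 6 was 0.05. SAG29, the senescence-associated sugar exporter SWEET15, gave 2.7 in WDC and 20.6 in NOT, at least 1.65-fold higher. It passed the floor through NOT alone. Of the other 3 sugar transporters above the floor on an array none met the rule, beside 5.1% of all named genes, and the vacuolar transporters TMT2 and TMT1 had log2 ratios of 0.43 and 0.36.

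**Figure D2:**
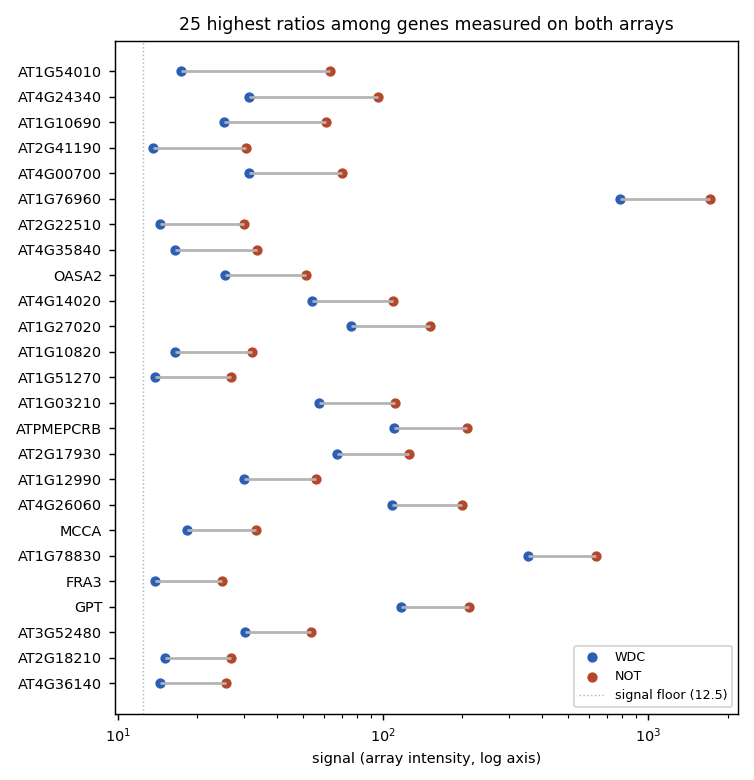
Signals in WDC (blue) and NOT (red) on a log axis for the 25 highest ratios among genes above the floor of 12.5 on both arrays, ordered by ratio. AT1G54010, AT4G24340 and AT1G10690 have the widest gaps, and many of the listed genes have WDC signals within a few units of the floor.

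Cell wall genes numbered 7. ATPMEPCRB, a pectin methylesterase, gave 110.4 in WDC and 208.3 in NOT, 1.89-fold higher, and its second probe set gave 99 and 180.7, 1.83-fold higher. AT2G37130, a class III peroxidase, gave 517.4 and 886.6, 1.71-fold higher, and its probe set is marked for shared sequence. AT2G05540, a glycine-rich protein, gave 284.7 and 473.4, 1.66-fold higher. These 3 were well above the floor on both arrays. The other 4 were dim. AT2G22510, of a hydroxyproline-rich glycoprotein family, gave 14.5 and 30, 2.07-fold higher. FRA3, an inositol phosphatase needed for fibre walls, TBL23, of the trichome birefringence-like family, and CSLB03, a cellulose synthase-like protein, had NOT signals of 24.8, 29.8 and 20.5.

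Enzymes of carbohydrate and other metabolism were the largest named class, with 14 genes. BGLU25, a beta-glucosidase, gave 477.2 in WDC and 803.7 in NOT, 1.68-fold higher. AT1G62660, a vacuolar invertase that splits sucrose, gave 29.7 and 51, 1.72-fold higher. The probe sets of both genes are marked for shared sequence. AT3G47800, of the aldose epimerase family, gave 162.2 and 250.2, 1.54-fold higher. AT2G04400, the indole-glycerol phosphate synthase of tryptophan synthesis, gave 159.5 and 253.1, 1.59-fold higher, again on such a probe set. OASA2, an isoform of O-acetylserine (thiol) lyase, the enzyme family that makes cysteine, gave 25.3 and 51.5, 2.04-fold higher.

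Paired relatives appeared among the oxidases and glycosyltransferases. AT2G34810 and AT5G44380 both encode oxidases of the berberine bridge enzyme family. AT2G34810 gave 69.6 in WDC and 115 in NOT, 1.65-fold higher, and AT5G44380 gave 9.3 and 21.1, at least 1.69-fold higher. The adjacent glycosyltransferase loci AT3G46690 and AT3G46700 gave 2.5 and 13.9 in WDC and 20.6 and 23.3 in NOT, close to the floor even on the higher array. Glycosyltransferases named by symbol differed in direction. Among 14 UGT genes named by symbol and above the floor, 1 was higher (UGT72E1, which is not among the 89) and 3 were lower by the 1.5-fold rule, beside 5.1% and 9.77% of all named genes, and the median log2 ratio of 13 measured on both arrays was -0.03. The other enzymes were AT1G03210 of the PhzF family, the FAD-dependent oxidoreductase AT5G05320, the amidase-like AT5G07360 and the pyridoxamine phosphate oxidase-like AT2G04690, with folds from 1.66 to 1.93.

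Membrane transport contributed 6 genes. AT2G41190, of an amino acid transporter family, gave 13.6 in WDC and 30.6 in NOT, 2.25-fold higher, from a WDC signal close to the floor. AT2G40460 and AT1G59740, of the NPF family of nitrate and peptide transporters, gave 1.66-fold and 1.64-fold higher signals, with 31.9 and 41.9 in NOT. AT2G44290, a lipid transfer protein held at the cell surface, was the brightest, with 287.8 and 437.7, 1.52-fold higher. AT2G16835, an aquaporin-like protein, gave 15.6 and 24.7. AT4G27870, of the vacuolar iron transporter family, gave 60.3 and 90.5 and lay closest of all to the rule, at 1.501-fold. AT4G27870 and AT2G44290 fell short of the rule after loess normalization.

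Signalling proteins and a cell cycle inhibitor made up 9 genes. AT1G10690, a small inhibitor of cyclin-dependent kinases of the SIAMESE-related family, which slows cell division in favour of endoreduplication, gave 25.2 in WDC and 61.1 in NOT, 2.42-fold higher. It was the only gene of 16 listed kinase inhibitors with a named probe set. AT4G00700, a membrane protein with C2 domains, gave 31.3 and 70.1, 2.24-fold higher. AT4G35840, a RING-finger protein, gave 16.5 and 33.6, 2.04-fold higher, and another, AT4G10160, gave 11.1 and 19.1, at least 1.53-fold higher. The protein kinases AT4G32250, AT5G44290 and AT4G23050 had folds of 1.76, 1.69 and 1.65, with NOT signals from 59.7 to 111.2. AT2G35680, of the phosphotyrosine phosphatase superfamily, gave 225.5 and 359.7, 1.60-fold higher. SAL2, a paralogue of the nucleotide phosphatase SAL1, gave 19.8 and 34.7, 1.75-fold higher.

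Transcription and translation were represented by 6 genes, all measured on both arrays. AT2G17930 and AT4G36080 encode both Arabidopsis relatives of Tra1, a very large scaffold protein of histone acetyltransferase complexes that recruits them to activators. AT2G17930 gave 67.2 in WDC and 125.8 in NOT, 1.87-fold higher, and AT4G36080 gave 35.8 and 60, 1.68-fold higher. The pair lies on different chromosomes, and both used probe sets carry no mark for shared sequence. AT4G26060, of the ribosomal protein L18ae family, gave 108.6 and 198.9, 1.83-fold higher. NRPE3B, a subunit of RNA polymerase V, the DEIH-box helicase NIH and AT4G26870, an aspartyl-tRNA synthetase, had folds of 1.54, 1.53 and 1.51, and AT4G26870 fell short of the rule after loess normalization (0.57).

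The other 24 genes fell into none of these classes or have no role stated here. AT1G76960 was the brightest of all 89, with 786.7 in WDC and 1718 in NOT, 2.18-fold higher, at a signal far above the floor. AT1G27020 gave 75.9 and 150.2, 1.98-fold higher, and AT4G14020 gave 54.1 and 109.8, 2.03-fold higher. AT1G49500 and AT1G70160 were bright as well, with NOT signals of 698.1 and 431.1, but small folds of 1.53 and 1.58. After loess normalization AT1G49500, AT1G49470, AT1G78890 and AT4G14390 fell short of the rule, at log2 ratios of 0.56, 0.57, 0.56 and 0.57. AT2G42760, AT4G00600, AT2G18100, AT1G04280, AT4G07990 and AT4G37190 were above the floor on NOT only, with lower bounds from 1.51-fold to 2.35-fold. The other probe set of AT2G18100 was under the floor on both arrays, at 1.5 and 1.3. AT2G01680 and AT4G14390, both proteins with ankyrin repeats, gave 242.4 and 188 in NOT and folds of 1.62 and 1.51. AT2G40600, a protein with a macro domain, gave 109.7 in WDC and 179.1 in NOT, 1.63-fold higher. The others, all measured on both arrays, were AT1G10820, AT3G52480, AT2G18210, AT4G02360, AT1G22930, AT4G27450, AT4G29520, AT1G49470 and AT1G78890, with folds from 1.51 to 1.95. AT4G03030, a protein with kelch repeats, was 1.56-fold higher on its brightest probe set, whereas its second gave 124.5 in WDC and 157.7 in NOT, a fold of 1.27 and short of the rule.

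**Figure D3:**
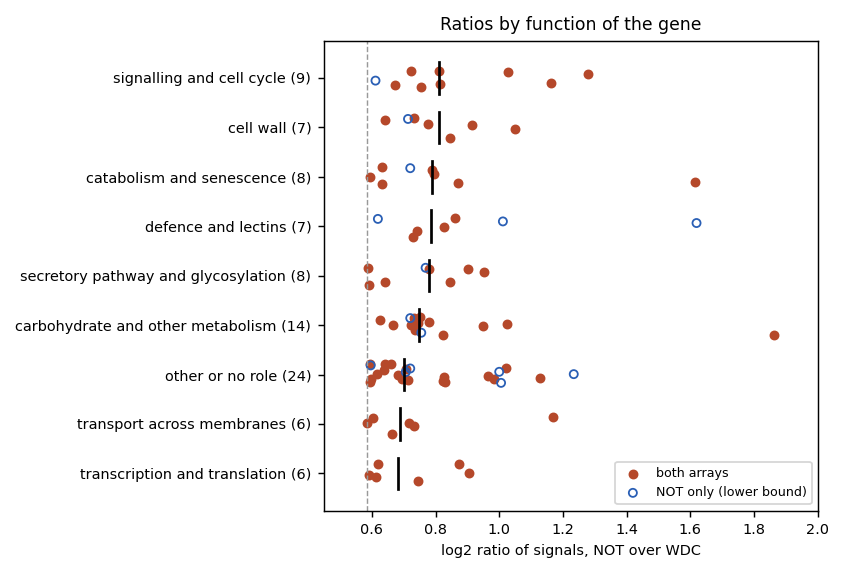
Log2 ratio of signals, NOT over WDC, for each of the 89 genes by function (number of genes in parentheses), with filled points for genes measured on both arrays, open points for lower bounds, black bars for the median of the filled points and a dashed line at the rule (0.58). The medians lie between 0.68 and 0.81, above the 0.58 that the rule sets as the lowest value.

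Medians of the log2 ratio over genes measured on both arrays ran from 0.68 for transcription and translation to 0.81 for signalling and for the cell wall, over 4 to 12 genes each in the classes with a role. As the rule removed every ratio under 0.58, these medians do not compare the classes.

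Some properties of the genes had no part in the rule. On the chromosomes, 28 lay on chromosome 4, 23 each on chromosomes 1 and 2, 9 on chromosome 3 and 6 on chromosome 5. Chromosome 2 held 25.8% of them and 36.5% of all 2118 genes above the floor on an array, while chromosome 3 held 10.1% and 5.34%. In the order of protein-coding genes, 6 pairs of them lay within 5 genes of each other, out of 1914 such pairs among genes above the floor, and 2 of those pairs were adjacent. The adjacent ones were AT4G24340 with AT4G24350 and AT3G46690 with AT3G46700, each a pair of relatives. The other pairs were SPI with MCCA, AT1G49470 with AT1G49500, AT2G05540 with ATG8D, and ATPMEPCRB with AT4G02360. In the other 41 adjacent pairs that held 1 of the 89, the neighbour was none of the 19 exceptions, so by the rule it was not 1.5-fold higher. Of these 41 neighbours 5 were at least 1.5-fold lower in NOT, beside 9.77% of all named genes. One of the lower neighbours was EXPA8, an expansin, next to AT2G40600. No test was made of these counts, and with 1 array per group none over samples can be had.

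A WDC signal under 25, which the rule favours, was found for 39.3% of the 89 genes and 24.7% of all genes above the floor on an array. Probe sets marked for shared sequence (suffix s or f), on which related genes can hybridise, were used for 12.4% of the 89 and 10.5% of all. Probe sets designed with fewer probes or relaxed rules (suffix i or r) were used for 7.87% and 2.12%. The latter were those of AT4G24340, AT4G24350, AT4G00600, AT3G46690, CSLB03, AT4G03030 and NRPE3B. Their part in the result was not tested. Probe sets with the suffix g, used for GPT, AT2G18100 and AT4G36140, are in neither share. By brightness of the higher signal, named genes above the floor on an array were cut into 4 equal classes. The share meeting the rule was 3.96% in the dimmest, 4.54% and 5.29% in the next ones and 6.60% in the brightest. Calls were thus found in every class. The rule needs a NOT signal of at least 1.5 times the floor. Genes at the lower end of the dimmest class, which began at 12.6, could not meet it, so nothing is read from the rise. On the far side of the rule the nearest genes were AT4G17470 at 1.497-fold, AT1G67330 at 1.497-fold and UBP16, a ubiquitin-specific protease, at 1.494-fold, which differ from AT4G27870 and RAB6A, just inside at 1.501 and 1.505, by far less than the probe scatter.

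The number of genes meeting the rule moved with the scaling of the arrays. Scaling each array to its median gave 155 genes outside the 19 exceptions and scaling to the spiked-in controls gave 181, and both numbers included all 89. These scalings shifted the median log2 ratio of all named genes from -0.02 to 0.09 and 0.12. The share of higher genes among all named genes past the 1.5-fold rule rose with them, from 34.3% to 52.7% and 58.7%, and it was 44.8% with quantile normalization. Median and control scaling add 1 constant to the log2 ratio of each of the 74 genes measured on both arrays. This raised their median to 0.85 and 0.89. The 15 lower bounds shifted by less, as WDC signals under the floor are set to the floor. After loess on signal 79 of the 89 still met the rule.

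**Figure D4:**
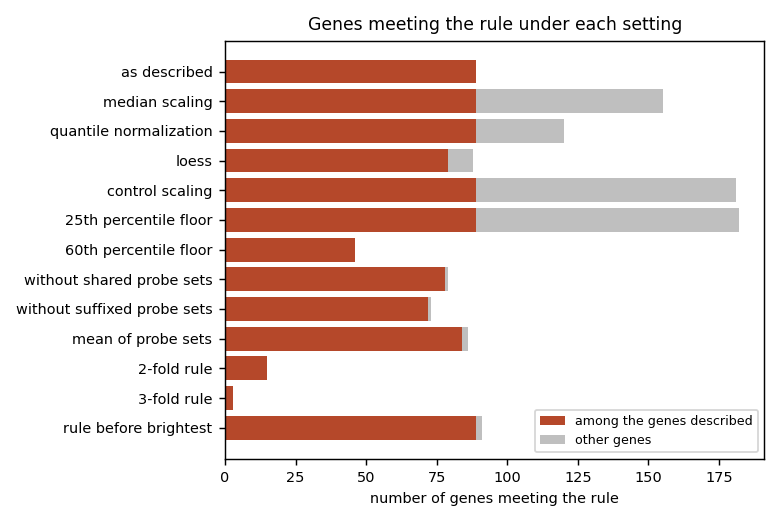
Number of genes that met the rule, outside the 19 exceptions, under each setting (horizontal bars from 0), split into genes among the 89 described (red) and other genes (grey). All 89 met the rule under median, quantile and control scaling and with the 25th percentile floor, where up to 182 genes did so, while 46 did with the 60th percentile floor and 15 at 2-fold.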

How the data were processed

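RNA from 2 pooled leaf samples was hybridised to 2 single-colour Affymetrix arrays of 8297 probe sets. The deposited values are 1 linear intensity per probe set and array, which the authors had scaled, since the trimmed means are equal (100.1 on both arrays). Which software summarised the probes is not stated. Mean scanner background, per the labels, was 75.02 for NOT and 76.78 for WDC. After removal of 50 control probe sets, 3794 of 8247 named 1 gene in a table of the platform's annotation, 3784 were matched to RefSeq genes of TAIR10.1 (names and gene order only), and 4453 named several or none. The floor is the 40th percentile of the pooled values, 12.5. The brightest probe set by mean signal stands for a gene. A probe set with the suffix s or f is called marked for shared sequence; i and r stand for fewer probes and for relaxed selection rules.

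Genes, lists and function classes were chosen with earlier results of these data known, and classes after the values were seen. Every gene meeting the rule may be named. Alternatives were other scalings (median, quantile, loess with a span of 0.4, 9 spiked-in controls), floors, fold rules, probe set choices and, added after the data were seen, applying the rule before choosing the brightest probe set and leaving out all suffixes s, f, i and r. The counting was tested on simulated data. Promoter motifs were planned but not analysed here. Python 3.11.15, numpy 2.4.6, pandas 2.3.3, statsmodels 0.14.6 and matplotlib 3.10.9 were used.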

Additional observations from a re-analysis of the deposited data

How the results depend on the processing

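The count of 89 genes became 155 with median scaling, 181 with control scaling, 182 with the 25th percentile floor, 46 with the 60th, 15 at 2-fold and 3 at 3-fold. The count of all named genes meeting the rule, 108, became 174, 200, 201, 61, 28 and 5 under the same settings. The fold rules and floors change the counts by construction, and the scalings by a shift of the ratios in 1 direction. Counts of the 89 stayed within 1.5 times under quantile normalization (120), loess (88), removal of probe sets marked for shared sequence (79) or of those with suffix s, f, i or r (73), the mean of probe sets (86) and the rule applied before the brightest probe set (91). With the mean of probe sets, 84 of the 89 still met the rule, while 8 of the 89 had more than 1 probe set. GPT and AT4G03030 then fell short, at log2 ratios of 0.52 and 0.49. AT4G07820, AT2G18100 and AT4G36140 fell under the floor on both arrays. The median log2 ratio of the genes measured on both arrays ranged from 0.70 to 0.89 over all scaling, floor and probe set alternatives run. Single-gene values, counted anew for each gene under each alternative, moved by less than the probe scatter in 716 cases and by more in 20. None reversed, but the rule kept only ratios of 1.5-fold or more, which leaves little room for a reversal. Genes with 1 probe set cannot move under the probe set alternatives, and genes without a value under an alternative were not counted. Nothing is therefore read from these counts. No paired analysis was possible because each group had 1 array. Signals near the floor and a single array per group limit every ratio.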

Other observations

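Beyond the genes named by their brightest probe set, AT1G09500 and YLS5 met the rule on a dimmer probe set only. YLS5, known as a gene of yellow leaves, gave 132.8 in WDC and 286.7 in NOT on the dimmer probe set, 2.16-fold higher, and 602.9 and 850.1 on the brighter, a fold of 1.41. AT1G09500 gave 11.2 and 35.1 on the dimmer, at least 2.81-fold higher, and 32.9 and 45.9 on the brighter, a fold of 1.40. The brighter probe set of YLS5 and the dimmer one of AT1G09500 are marked for shared sequence.

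Probe sets without a single named gene met the 1.5-fold rule in 201 of 2907 cases above the floor on an array, or 6.91%, beside 5.1% of named genes. Among serine carboxypeptidases, a family of secreted and vacuolar enzymes, 4 of 51 listed genes were above the floor and none met the rule, beside 5.1% of named genes, with scpl29 highest at a log2 ratio of 0.53 and scpl26 lowest at -0.09. Of 5 MADS-box factors above the floor, 2 were at least 1.5-fold lower in NOT and none was higher, beside 9.77% and 5.1% of all named genes. The lower ones were AGL19, with 23 in WDC and 14.1 in NOT, and AGL93, with 20 and 11.9. Their NOT signals lay near or under the floor. The median log2 ratio of the 3 factors measured on both arrays was -0.04.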
